A study of Mus musculus with 33 samples.

Results

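The genes that bring fatty acids into heart muscle cells and burn them in mitochondria were followed by RNA sequencing across 3 mouse lines in which Ptpmt1 was deleted in cardiomyocytes. The list holds 36 genes, chosen by symbol as a functional group, and all 36 have a row in each of the 3 tables, among 32245 genes. With the filter on low values, 35 of the 36 could be tested in every table, and Ucp3 could not. Ptpmt1 encodes a phosphatase of the inner mitochondrial membrane that acts in the synthesis of cardiolipin. The FST table holds 12 libraries, 3 of each genotype: control, Eif2a mutant, Ptpmt1 knockout, and both mutations together, here called the double. The PHT table holds 9 libraries, with 2 controls, 2 Hri knockouts, 3 Ptpmt1 knockouts and 2 doubles of both. The PTGC table holds 6 libraries, 3 controls and 3 doubles of the Ptpmt1 and Gcn2 knockouts, so it has no single mutant. In the labels the deletion of Ptpmt1 is specific to cardiomyocytes, and so is that of Hri where it stands alone. The double genotypes name Hri and Gcn2 knockout without a cell type. The name Eif2a stands for the alpha subunit of initiation factor eIF2, the protein that the kinases Hri and Gcn2 phosphorylate, and the labels also write it as Eif2alpha. The sources used here do not give the driver of the deletion, the nature of the Eif2a mutation, the genotype of the controls or the animals' age. All samples are labelled as cardiomyocytes and the molecule as nuclear RNA. The 6 samples of a line with the Ptpmt1 knockout alone are not analysed here, which left 27 of 33.

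Long-chain fatty acids are released from circulating triglyceride by lipoprotein lipase, enter the cell through carriers such as Cd36, are bound by Fabp3 and are activated to acyl-CoA by Acsl1. The carnitine shuttle moves them into the mitochondrion, where dehydrogenases, hydratases and thiolases shorten them stepwise to acetyl-CoA and pass electrons on through the electron transfer flavoprotein. The adult heart takes much of its energy from this pathway, and the nuclear receptors of the PPAR and ERR families with their coactivators of the PGC-1 family are known as its transcriptional regulators.

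The libraries hold 1887978 to 19405261 reads, as recovered from the deposited values, and the shallowest by far is replicate 2 of the FST double. The next shallowest, replicate 1 of the Eif2a mutant, has reads for the fewest genes, 15157. In FST, control replicate 3 and Ptpmt1 knockout replicate 3 stood apart from the other libraries of their groups, and Eif2a mutant replicate 1 less so. In PTGC, control replicate 3 and replicate 2 of the double did. Ptpmt1 itself fell from 163 ± 10.3 to 35.5 ± 4.71 normalized counts (reads divided by a size factor per library, mean ± SD) in FST, from 265 ± 33.6 to 48.8 ± 13.8 in PHT and from 328 ± 35.4 to 71.2 ± 4.48 in the PTGC double. Eif2ak1, the gene of Hri, was at 569 ± 29.8 in PHT controls and 403 ± 18.8 in Hri knockouts. Eif2ak4, the gene of Gcn2, was at 392 ± 125 in PTGC controls and 350.3 ± 36.8 in the doubles, with overlapping values. Which exons are deleted is not given, so the total over a gene does not settle the label. Overlaps of Ptpmt1 exons with Kbtbd4 and Gm17661, both on the opposite strand, add up to 52.3% of its exon bases. Cardiomyocyte markers (14 genes) made up 4.86 to 7.8% of the signal of a library, and 9 adipocyte markers 0.000321 to 0.00079%, with 4 to 8 of the 9 at 0 in each library. A panel of 12 genes of the integrated stress response took 0.0233 to 0.0268% of the signal in FST controls and 0.0591 to 0.102% in FST Ptpmt1 knockouts. It took 0.0263 to 0.0297% in the FST doubles, and 0.0826 to 0.0985% in the PTGC doubles against 0.0258 to 0.0264% in their controls. In PHT the panel took 0.0247 to 0.0259% in controls and 0.0558 to 0.0793% in Ptpmt1 knockouts. The PHT Hri knockouts had 0.024 to 0.0265% and the PHT doubles 0.0231 to 0.0272%. Read from Xist and Y-linked genes, 1 of 3 FST controls and 3 of 3 FST Ptpmt1 knockouts were male, and 0 of 2 PHT controls against 2 of 2 Hri knockouts and 2 of 2 PHT doubles. In PHT, sex and genotype therefore cannot be told apart between controls and either of those groups without the Ptpmt1 knockouts, of which 1 of 3 was male. In samples of many cells like these, fewer cells of a type and less RNA per cell cannot be told apart.

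No fatty acid gene passed the test in any of the 13 comparisons. Tests used limma on log2(value + 1), with Benjamini-Hochberg adjustment over all genes of a table, and a gene was called at an adjusted p under 0.05. In the comparison of the Ptpmt1 knockout with control, 0 of 35 members were called in FST, where 0.504% of all genes tested were called, and 0 of 35 in PHT, where 0.301% were. In the PTGC double against control it was 0 of 35, beside 0.743% of all genes. For the FST double, 0 members were called against control (0.144% of all genes), against the Ptpmt1 knockout (0.878%) or against the Eif2a mutant (0.0072%). For the PHT double, 0 were called against control (0.0267%), against the Ptpmt1 knockout (0.327%) or against the Hri knockout (0.02%). The Eif2a mutant (0.036%) and the Hri knockout (0.02%) against control, and the interaction in FST (0.0216%) and PHT (0.12%), also gave 0. The interaction is the effect of the Ptpmt1 knockout in the second mutant background minus its effect without that mutation. At such shares a call among 35 genes would be rare for any list.

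Tests on the recovered reads gave nearly the same picture. edgeR called 0 members in all 13 comparisons, beside 0.662% of all genes in the FST Ptpmt1 knockout, 0.0432% in the Eif2a mutant and 0.151% in the FST double against control. For the FST double it called 0.9% of all genes against the Ptpmt1 knockout, 0.0072% against the Eif2a mutant and 0.036% in the interaction. In PHT against control, edgeR called 0.301% in the Ptpmt1 knockout, 0.02% in the Hri knockout and 0.0267% in the double. For the PHT double it called 0.347% against the Ptpmt1 knockout, 0.0134% against the Hri knockout and 0.1% in the interaction, and in PTGC it called 0.736%.

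DESeq2 called the coactivator gene Ppargc1b lower in the FST Ptpmt1 knockout against control, where it called 2.54% of all genes and 1.43% lower. In the FST double against the Ptpmt1 knockout (2.28% of all genes) it called Lpl lower, beside 1.02% of all genes, and Ppargc1b higher, beside 1.26%. In the PHT Ptpmt1 knockout against control (0.461%) it called Lpl higher, beside 0.421%. In every other comparison DESeq2 called 0 members. Its share of all genes there was 0.338% in the Eif2a mutant and 0.669% in the FST double against control, 0.158% in the FST double against the Eif2a mutant and 0.23% in the FST interaction. In PHT it was 0.0267% in the Hri knockout and 0.0802% in the double against control, 0.702% and 0.0735% in the double against the Ptpmt1 and the Hri knockout, and 0.254% in the interaction. In PTGC it was 1.27%.

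**Figure D1:**
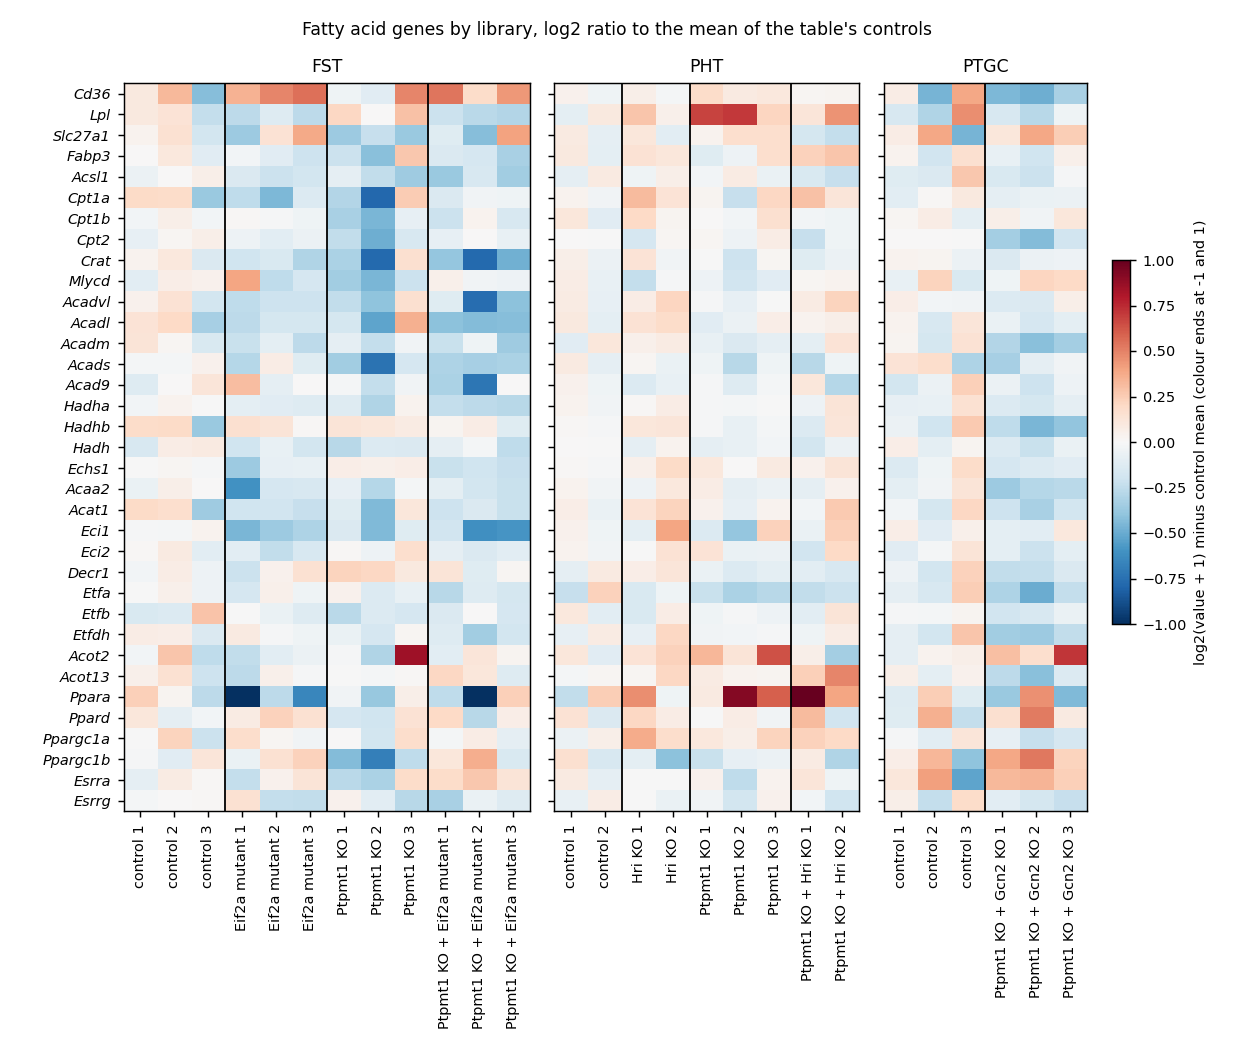
Each cell is the log2(value + 1) of a fatty acid gene in 1 library minus the mean of the controls of its table, blue below and red above control, for the 35 genes tested, in FST (12 libraries), PHT (9) and PTGC (6). Most FST cells outside the controls are pale blue, Ptpmt1 knockout replicate 2 is the darkest column, and the dark cells of Ppara come from a gene of few reads.

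At an unadjusted p under 0.05 the counts of members stood furthest above the share over all genes in the FST double and the PTGC double, each against control. In FST, 5 of 35 members reached it in the Ptpmt1 knockout against control (13.4% of all genes did), all 5 of them lower (6.79% of all genes); the count was 12 without Ptpmt1 knockout replicate 3, where 22.2% of all genes reached it, and 3 without replicate 2 (8.18%). The FST double against control had 12 of 35, all lower, where 10.1% of all genes reached that p and 5.41% with a lower value. The PTGC double against control had 10 of 35, with 8 lower and 2 higher (11.5% of all genes, 5.8% with a lower and 5.71% with a higher value). The count in the FST double was 6 without control replicate 2 (6.87% of all genes) and 7 without control replicate 1 (6.92%). That of PTGC ranged from 4 without replicate 2 of the double (5.51%) to 16 without control replicate 2 (24.6%). In PHT the counts were 3 for the Ptpmt1 knockout (4.79%), 1 for the Hri knockout (3.24%) and 3 for the double (6.58%), each against control. The double against the Ptpmt1 knockout had 5 in FST (13.8%) and 4 in PHT (8.29%), and in FST the count ran from 3 without replicate 2 of the double (11.3%) to 8 without Ptpmt1 knockout replicate 2 (11.4%) or 3 (18.7%). Against the second single mutant the double had 2 in FST (8.14%) and 1 in PHT (5.83%), the Eif2a mutant had 3 (7.97%), and the interaction had 2 in FST (7.06%) and 1 in PHT (4.64%).

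In control libraries the members differed far more from each other than any of them did between genotypes. Per kilobase of annotated exon, Etfb, Acadl, Fabp3, Acaa2, Cpt1b and Etfa were the 6 highest members in the controls of all 3 tables, and Ppard, Slc27a1, Ppara and Ucp3 the 4 lowest. In FST controls, Etfb, the beta subunit of the electron transfer flavoprotein, stood at 914 ± 164 normalized counts per kb (SD, n = 3) and Acadl, the long-chain acyl-CoA dehydrogenase, at 807 ± 153, which do not differ beyond their spread. Fabp3, the binding protein of heart and muscle, at 588 ± 45.5, Acaa2, a thiolase, at 566 ± 24.4 and Cpt1b, the muscle form of the entry enzyme of the carnitine shuttle, at 549 ± 18.8 overlapped too. The receptor Ppara stood at 4.93 ± 0.88 and the coactivator Ppargc1a at 147 ± 22.4. The 5 highest members held 43.8% of the summed level of the list in FST controls, 46.1% in PHT and 43.7% in PTGC. Cpt1b exceeded Cpt1a, the form of most other tissues, by 8.35 times per kb in FST controls, 8.41 in PHT and 7.90 in PTGC, and by 6.69 to 11.5 times over the 27 libraries. Exon lengths were pooled over all annotated transcripts of a gene, so order, shares and ratios per kb also depend on the annotation. Before division by length, FST controls had 2693 ± 60.2 normalized counts for Hadha (8730 bases) and 1064 ± 190 for Etfb (1164 bases). They had 1850 ± 63.5 for Cpt1b (3372 bases) and 502 ± 105 for Cpt1a (7642 bases). Annotated exons of Cpt1b share 81.4% of their bases with a readthrough model on the same strand. For Etfb, overlaps with Gm45233 and Mir7051 on the same strand add up to 58.2%. Exons of Acadvl share 42.9% with Dvl2 on the opposite strand. The reads of Cpt1b, Etfb and Acadvl could therefore not be assigned with certainty.

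**Figure D2:**
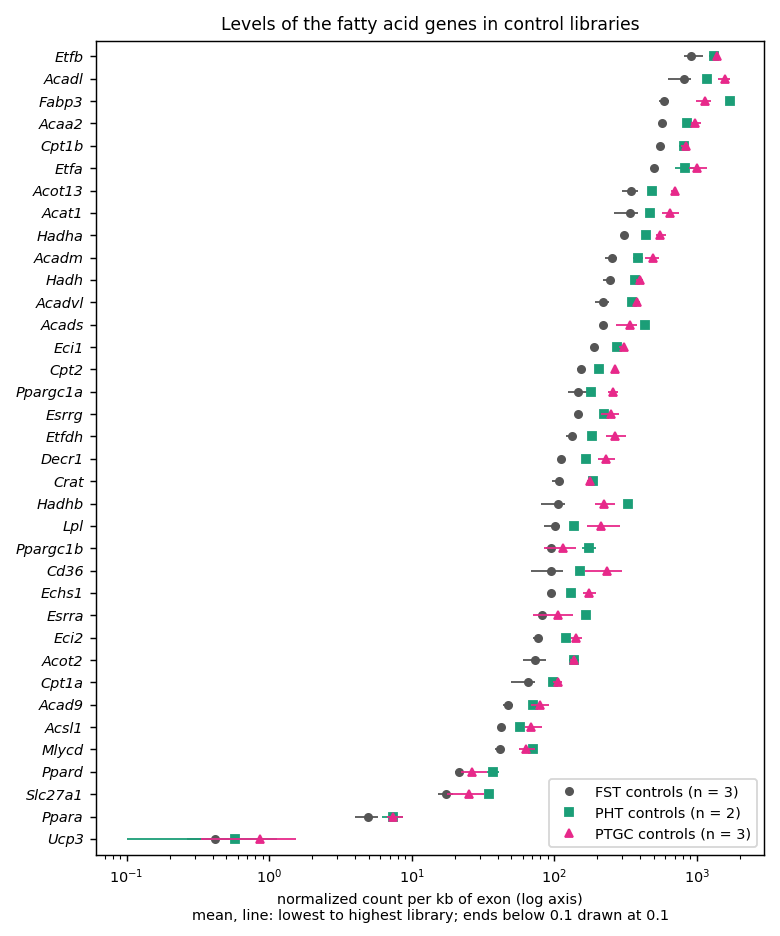
Normalized counts per kb of exon of the 36 genes in the controls of FST (n = 3), PHT (n = 2) and PTGC (n = 3) on a log axis, with the mean as a symbol and a line from the lowest to the highest library. The order is alike in the 3 tables, with Etfb, Acadl and Fabp3 at the top and Ucp3 near 0; tables were normalized separately, so symbols of different tables are not compared.

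Among the 5 genes of uptake and activation, Lpl had the smallest p of all members. It encodes lipoprotein lipase, which frees fatty acids from circulating triglyceride. In FST its normalized counts were 1121, 1155 and 891 in controls (replicates 1 to 3), 877, 960.1 and 876 in Eif2a mutants, 1210.0, 1055 and 1288 in Ptpmt1 knockouts and 905, 871 and 858 in doubles. The 3 doubles lay below all 3 Ptpmt1 knockouts, and the Ptpmt1 knockouts overlapped the controls. The log2 fold change of the double against the Ptpmt1 knockout was -0.43 ± 0.10 (SE), with a limma adjusted p of 0.0708. The difference was called by DESeq2 (adjusted p = 0.0152), and by limma without control replicate 3 or without Ptpmt1 knockout replicate 2. Over all alternatives its limma, edgeR or DESeq2 adjusted p ranged from 0.0152 to 0.194.

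In PHT, Lpl was at 1351 and 1539 in controls, 1745 and 1491 in Hri knockouts, 2308, 2360.0 and 1678 in Ptpmt1 knockouts and 1565 and 1965 in doubles. All 3 Ptpmt1 knockouts exceeded both controls, with replicates 1 and 2 well above replicate 3. The log2 fold change was 0.54 ± 0.14 (limma adjusted p = 0.268), and it was called by DESeq2 (adjusted p = 0.0195) and by limma without Ptpmt1 knockout replicate 3, where it was 0.69. The interaction in PHT was -0.42 ± 0.21 (limma adjusted p = 0.998). In PTGC the values were 1950.3, 1773 and 3010.3 in controls and 1957, 1798 and 2118 in doubles, and control replicate 3 was the highest. There the difference was -0.16 ± 0.17, so Lpl was not higher in the PTGC double.

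Cd36, the fatty acid translocase, varied widely between libraries of 1 group. FST values were 355, 415 and 246 in controls, 422, 465 and 485 in Eif2a mutants, 321, 306 and 464 in Ptpmt1 knockouts and 480.1, 376 and 447 in doubles. The Eif2a mutants lay above the controls, with a log2 fold change of 0.46 ± 0.18 (limma adjusted p = 0.549), and 0.49 with a term for sex. The Ptpmt1 knockouts overlapped both. In PTGC it was 857, 591 and 1065 in controls and 597, 579 and 649 in doubles, a difference of -0.42 ± 0.17 (limma adjusted p = 0.408) that was called only without control replicate 2, the low control. The PHT values were 558 and 526 in controls, 563 and 534 in Hri knockouts, 617, 575 and 581 in Ptpmt1 knockouts and 550.1 and 552 in doubles. The PHT Ptpmt1 knockouts were the highest of that table, by 0.12 ± 0.09 against control.

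Fabp3 in PHT was at 1502 and 1311 in controls, 1548 and 1515 in Hri knockouts, 1291, 1353 and 1577 in Ptpmt1 knockouts and 1644 and 1697 in doubles. Both doubles exceeded every other PHT library, and the log2 fold change against control was 0.25 ± 0.10 (limma adjusted p = 0.74), and 0.43 with a term for sex, which coincides with genotype here. In FST, Fabp3 was at 485, 521 and 446 in controls, 474, 447 and 418 in Eif2a mutants, 417, 361 and 583 in Ptpmt1 knockouts and 437, 429 and 386 in doubles, where all 3 doubles lay below all 3 controls (-0.21 ± 0.14). PTGC had 953, 813 and 1039 in controls and 882, 811 and 966 in doubles, which overlapped (-0.07 ± 0.12). Acsl1, the acyl-CoA synthetase of heart and fat, had a log2 fold change of -0.23 ± 0.10 in the FST Ptpmt1 knockout and -0.30 ± 0.10 in the FST double, with all libraries of both groups below the controls (limma adjusted p = 0.326 and 0.323). Slc27a1, a transport protein of low level, had -0.33 ± 0.14 in the PHT double against the Ptpmt1 knockout (limma adjusted p = 0.539).

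**Figure D3:**
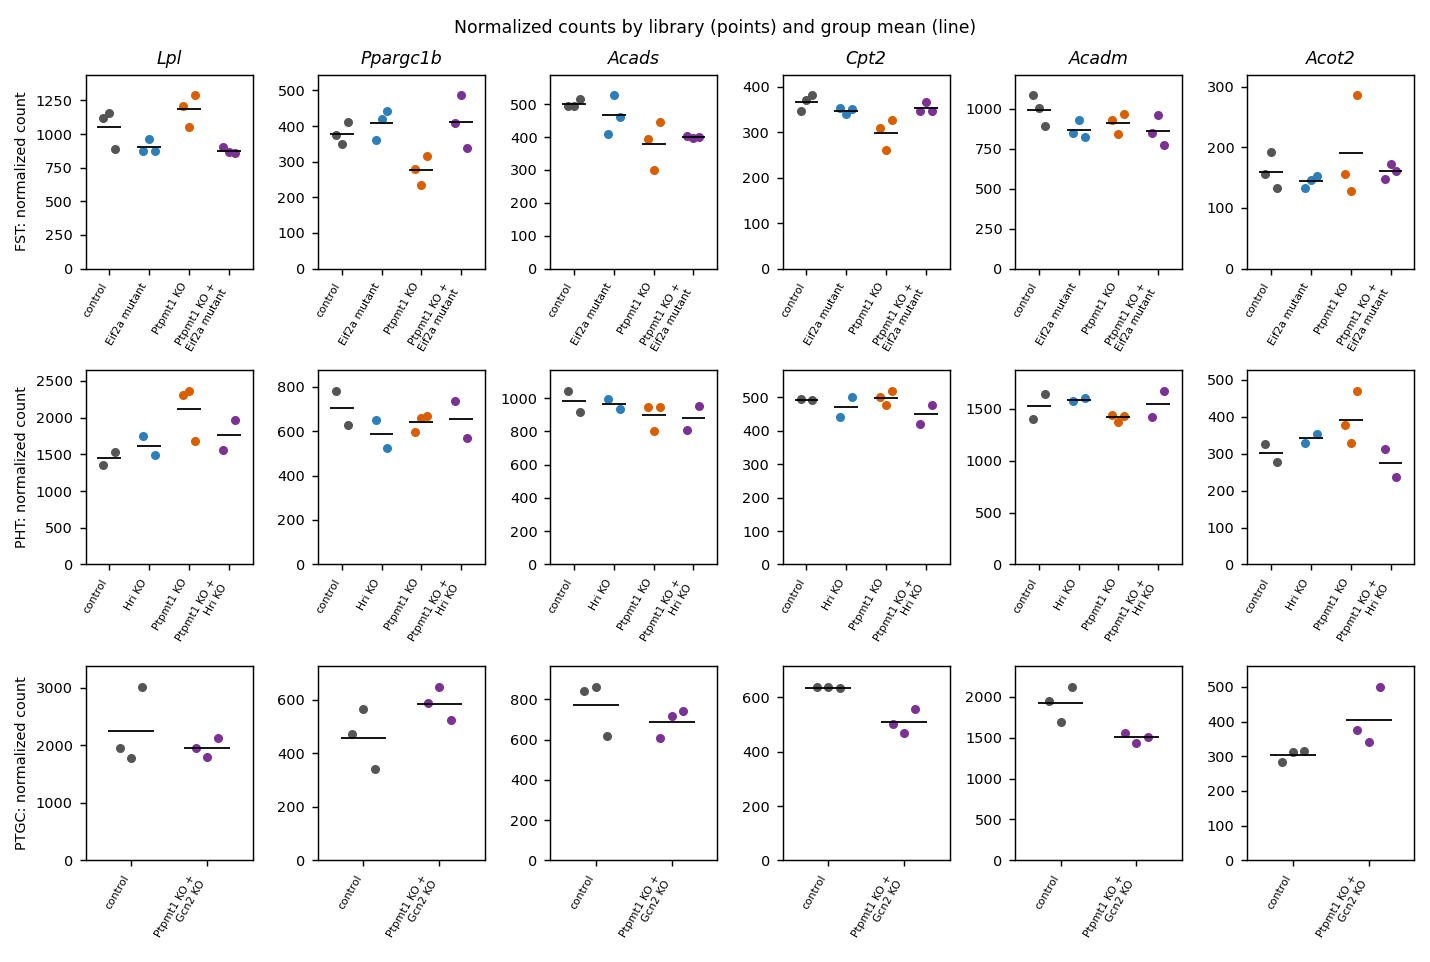
Normalized counts of 6 fatty acid genes (columns: Lpl, Ppargc1b, Acads, Cpt2, Acadm, Acot2) by library (points) with the group mean (line), for FST, PHT and PTGC (rows), on linear axes from 0. Ppargc1b of the FST Ptpmt1 knockouts lies below the other 3 FST groups, and Lpl is highest in the Ptpmt1 knockouts of FST and PHT.

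The 5 genes of the carnitine shuttle and its control were all below control on average in the FST Ptpmt1 knockout, with log2 fold changes from -0.34 to -0.27 and a median of -0.30. Over all genes tested that median was -0.01. Cpt1b was at 1816, 1923 and 1811 in FST controls, 1864, 1829.6 and 1793 in Eif2a mutants, 1479.7, 1343 and 1744 in Ptpmt1 knockouts and 1589.9, 1896 and 1658 in doubles. The 3 Ptpmt1 knockouts were below all controls, with replicate 3 nearest to them, and the doubles overlapped both. Its log2 fold change in the Ptpmt1 knockout was -0.29 ± 0.09 (limma adjusted p = 0.199), and it was called lower without that replicate, where 857 genes in all were called against 70 with it.

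Cpt2, the inner membrane enzyme that turns acylcarnitine back into acyl-CoA, was at 346, 372 and 382 in FST controls, 353, 339.7 and 351 in Eif2a mutants, 309, 261 and 327 in Ptpmt1 knockouts and 346, 367 and 348 in doubles. The Ptpmt1 knockouts were below every other FST library. Against control the difference was -0.30 ± 0.10 (limma adjusted p = 0.219), and the interaction was 0.32 ± 0.14 (limma adjusted p = 0.694). In PTGC, Cpt2 was at 638, 638 and 633 in controls and 502, 469.7 and 556 in doubles, all below the controls, with -0.32 ± 0.10 (limma adjusted p = 0.317). In PHT it was at 494 and 493 in controls, 439.9 and 501 in Hri knockouts, 501, 477 and 518 in Ptpmt1 knockouts and 420.4 and 478 in doubles. There the Ptpmt1 knockout overlapped the controls and differed from them by 0.01 ± 0.10.

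Cpt1a values were 563, 562 and 381 in FST controls, 414, 362 and 450.1 in Eif2a mutants, 403, 286 and 591 in Ptpmt1 knockouts and 447, 482 and 479 in doubles, so the Ptpmt1 knockouts spanned the range of all other groups. PHT had 762 and 724 in controls, 923 and 815 in Hri knockouts, 757, 634 and 856 in Ptpmt1 knockouts and 910.0 and 809 in doubles. Both Hri knockouts and both doubles lay above both PHT controls, by 0.22 ± 0.13 and 0.21 ± 0.13 (limma adjusted p = 1 and 0.792), and the Ptpmt1 knockouts overlapped them. In PTGC it was at 749, 814 and 862 in controls and 759, 769 and 776 in doubles, which overlapped (-0.07 ± 0.10).

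Cpt1b in PHT was at 2975 and 2541 in controls, 3153 and 2796 in Hri knockouts, 2756, 2703 and 3069 in Ptpmt1 knockouts and 2694 and 2664 in doubles, and all groups overlapped the controls. In PTGC it was at 2859, 2965 and 2626 in controls and 2933, 2748 and 3037 in doubles, with a difference of 0.05 ± 0.09, and the groups overlapped there too. Crat, which buffers acetyl groups as acetylcarnitine, had -0.55 ± 0.17 in the FST double against control, with all 3 doubles below the controls (limma adjusted p = 0.3). In the FST Ptpmt1 knockout it had -0.31 ± 0.17, and was called lower there without replicate 3. Mlycd, the decarboxylase that removes the Cpt1 inhibitor malonyl-CoA, had -0.34 ± 0.17 in the FST Ptpmt1 knockout.

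All 5 acyl-CoA dehydrogenases had average values below control in the Ptpmt1 knockouts of FST and PHT, the FST double and the PTGC double, and 2 of 5 in the PHT double. The median of the 5 was -0.12 in the FST Ptpmt1 knockout, -0.35 in the FST double, -0.05 in the PHT Ptpmt1 knockout, 0.02 in the PHT double and -0.11 in the PTGC double. Acads, the short-chain enzyme, was at 494, 494 and 515 in FST controls, 409.8, 527 and 461 in Eif2a mutants, 393, 300.3 and 447 in Ptpmt1 knockouts and 405, 398 and 402 in doubles. Ptpmt1 knockouts and doubles lay below all controls, and the doubles within the range of the Ptpmt1 knockouts. The log2 fold change was -0.42 ± 0.13 in the Ptpmt1 knockout (limma adjusted p = 0.183, and called lower without Ptpmt1 knockout replicate 3) and -0.32 ± 0.13 in the double (limma adjusted p = 0.417). The PHT values were 1042 and 919.6 in controls, 992 and 937 in Hri knockouts, 948, 805 and 948 in Ptpmt1 knockouts and 807 and 952 in doubles, with overlap and a difference of -0.12 ± 0.10 for the Ptpmt1 knockout. PTGC had 840.0, 860.4 and 615 in controls and 606, 719 and 743 in doubles, where control replicate 3 lay with the doubles (-0.15 ± 0.14).

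Acadm, the medium-chain enzyme, had the smallest p among members in PTGC. It was at 1948, 1696 and 2118 in controls and 1559.8, 1435 and 1512 in doubles, with every double below every control, and the log2 fold change was -0.35 ± 0.10 (limma adjusted p = 0.268). FST values were 1084, 1007 and 895 in controls, 851, 929 and 826 in Eif2a mutants, 930.0, 842 and 969 in Ptpmt1 knockouts and 848, 963 and 776 in doubles, and all groups overlapped the controls. In PHT it was at 1401 and 1644 in controls, 1574 and 1602 in Hri knockouts, 1443, 1376 and 1428 in Ptpmt1 knockouts and 1421 and 1668 in doubles. The FST and PHT Ptpmt1 knockouts differed from control by -0.12 ± 0.10 and -0.10 ± 0.09. In the FST double, Acadvl, the very long-chain enzyme, had -0.43 ± 0.16, Acadl -0.42 ± 0.17 and Acad9, which also acts in the assembly of complex I, -0.35 ± 0.16, with limma adjusted p from 0.362 to 0.479. Without control replicate 2 of PTGC, Acadm was called lower there (limma adjusted p = 0.037), and 536 genes in all were called against 105 with it.

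Of the 6 hydratases, 3-hydroxyacyl-CoA dehydrogenases and thiolases, all 6 were below control on average in the FST double and in the PTGC double, 4 of 6 in the Ptpmt1 knockouts of FST and of PHT, and 3 of 6 in the PHT double. Hadha, the alpha subunit of the trifunctional protein, was at 2640.3, 2759 and 2679.8 in FST controls, 2514, 2496 and 2467 in Eif2a mutants, 2459, 2180.1 and 2762 in Ptpmt1 knockouts and 2286, 2245 and 2217 in doubles. The doubles were below all controls and all Eif2a mutants, and the Ptpmt1 knockouts overlapped the controls. For the double this came to -0.26 ± 0.08 (limma adjusted p = 0.292).

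In PHT, Hadha was at 3968 and 3763 in controls, 3889 and 4057 in Hri knockouts, 3826, 3803 and 3852 in Ptpmt1 knockouts and 3722 and 4227 in doubles. The difference between Ptpmt1 knockout and control there was -0.01, with a 95% interval from -0.18 to 0.15. Its PTGC values were 4517, 4519 and 5311 in controls and 4346, 4225 and 4475 in doubles. All doubles were the lower, by -0.13 ± 0.10.

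Acaa2 in PTGC was at 1376, 1442 and 1612 in controls and 1144, 1212 and 1220.3 in doubles, which did not overlap, with -0.31 ± 0.10 (limma adjusted p = 0.308). FST values were 820.3, 894 and 859 in controls, 565, 761 and 768 in Eif2a mutants, 811, 705 and 846 in Ptpmt1 knockouts and 802, 756 and 735 in doubles, where all Eif2a mutants and all doubles lay below all controls, and Eif2a mutant replicate 1 was the lowest. The Eif2a mutant differed from control by -0.31 ± 0.11 (limma adjusted p = 0.506), and by -0.24 with a term for sex. PHT had 1335 and 1271 in controls, 1261 and 1402 in Hri knockouts, 1372, 1221 and 1254 in Ptpmt1 knockouts and 1227 and 1343 in doubles, and the Ptpmt1 knockout differed from control by -0.02 ± 0.09. Hadhb, the beta subunit of the trifunctional protein, had -0.37 ± 0.12 in the PTGC double (limma adjusted p = 0.328, and called lower without control replicate 2) but 0.11 ± 0.13 in the FST Ptpmt1 knockout. Echs1, the short-chain hydratase, was at 817, 806 and 818 in FST Ptpmt1 knockouts and 669, 681 and 664 in FST doubles, a difference of -0.28 ± 0.09 (limma adjusted p = 0.152). For Hadh and Acat1 the largest difference from control in any group was -0.19 and -0.24, respectively.

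Of the 3 enzymes for unsaturated fatty acids, Eci1, an isomerase that shifts double bonds, had the smallest p in the FST double. It was at 403, 401 and 418 in controls, 297, 315 and 328 in Eif2a mutants, 368, 299 and 374 in Ptpmt1 knockouts and 357, 265 and 270.5 in doubles. The controls were the highest 3 of the 12 libraries, and the other 3 groups overlapped each other. The log2 fold change was -0.46 ± 0.13 in the double (limma adjusted p = 0.209), -0.38 ± 0.13 in the Eif2a mutant (limma adjusted p = 0.462) and -0.24 ± 0.13 in the Ptpmt1 knockout. With a term for sex, Eci1 was at -0.39 in the double and -0.23 in the Eif2a mutant. In PHT it was 603 and 565 in controls, 545 and 766 in Hri knockouts, 532, 446 and 684 in Ptpmt1 knockouts and 559 and 689 in doubles, with groups that overlapped. PTGC had 682, 601 and 675 in controls and 607, 606 and 699 in doubles, also overlapping (-0.03 ± 0.11). Eci2, a second isomerase, and Decr1, the dienoyl-CoA reductase, differed from control by at most -0.21 in size, in Decr1 of the PTGC double.

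The electron transfer flavoprotein (Etfa and Etfb) and its dehydrogenase Etfdh, which hands the electrons to ubiquinone, were each below control on average in the Ptpmt1 knockouts of FST and PHT and in the FST and PTGC doubles. In the PHT double only Etfa was, by -0.23 ± 0.12. Etfa was at 1706, 1622 and 2155 in PTGC controls and 1462, 1287 and 1540.4 in PTGC doubles, with no overlap, and had -0.35 ± 0.12 (limma adjusted p = 0.349). The PHT values were 1283 and 1768 in controls, 1356 and 1459 in Hri knockouts, 1289, 1212 and 1241 in Ptpmt1 knockouts and 1267 and 1295 in doubles. Only control replicate 2 was high there, and the difference of -0.27 ± 0.11 (limma adjusted p = 0.977) was -0.04 without that library and -0.50 without control replicate 1. In FST, Etfa was at 917, 953 and 884 in controls, 814, 951 and 893 in Eif2a mutants, 943, 834 and 869 in Ptpmt1 knockouts and 756, 839.7 and 813 in doubles. The FST doubles lay below the controls, by -0.19 ± 0.09. Etfdh had -0.32 ± 0.12 in the PTGC double and -0.22 ± 0.09 in the FST double (limma adjusted p = 0.376 and 0.421).

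The thioesterases Acot2 and Acot13, which release free fatty acids from acyl-CoA, did not move together. Acot2 was at 326 and 278 in PHT controls, 330.3 and 354 in Hri knockouts, 379, 329.5 and 469 in Ptpmt1 knockouts and 313 and 237 in doubles. The Ptpmt1 knockouts were above the controls and the doubles, with 0.37 ± 0.16 against control (limma adjusted p = 0.999), and the double against the Ptpmt1 knockout was -0.51 ± 0.16 (limma adjusted p = 0.309). The interaction in PHT was -0.69 ± 0.23 (limma adjusted p = 0.998).

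In PTGC, Acot2 was at 285, 312 and 316 in controls and 375, 341 and 499 in doubles, with no overlap, and had 0.40 ± 0.14 (limma adjusted p = 0.362). In FST it was 156, 192 and 132 in controls, 133, 147 and 152 in Eif2a mutants, 157, 128 and 286 in Ptpmt1 knockouts and 147, 172 and 162 in doubles. Ptpmt1 knockout replicate 3 alone was high, and the group overlapped the controls. Acot2 has a close copy in Acot1, so reads of the pair may have been split in ways that the files do not show.

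Acot13 in PHT was at 357 and 369 in controls, 368 and 418 in Hri knockouts, 384, 372 and 370.1 in Ptpmt1 knockouts and 428 and 510.4 in doubles. Both doubles were the highest PHT libraries, with 0.36 ± 0.12 against control and 0.32 ± 0.11 against the Ptpmt1 knockout (limma adjusted p = 0.699 and 0.404). Sex coincides with genotype between these doubles and the controls, and with a term for sex the difference of Acot13 from control was 0.32. In PTGC its sign was the other way, with 543, 488 and 537 in controls and 435, 391 and 476 in doubles (-0.27 ± 0.11, limma adjusted p = 0.408). In FST it was at 267, 287 and 223 in controls, 214, 267 and 255 in Eif2a mutants, 257, 254 and 259 in Ptpmt1 knockouts and 298, 278 and 235 in doubles. All FST groups overlapped the controls. Ucp3, the uncoupling protein of muscle, stayed at or below 6.0 normalized counts in every library and was not tested.

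Among the 6 regulators, Ppargc1b stood out in FST. It encodes the PGC-1 beta coactivator. Its values were 375, 349 and 411 in controls, 360.3, 419 and 443 in Eif2a mutants, 279, 235 and 316 in Ptpmt1 knockouts and 408, 486 and 339.6 in doubles. The 3 Ptpmt1 knockouts were the lowest 3 of the 12 libraries, and the doubles overlapped controls and Eif2a mutants. The log2 fold change was -0.46 ± 0.14 in the Ptpmt1 knockout against control (limma adjusted p = 0.183), and the double differed from the Ptpmt1 knockout by 0.56 ± 0.14 (limma adjusted p = 0.0739). The interaction was 0.46 ± 0.20 (limma adjusted p = 0.688). DESeq2 gave adjusted p of 0.0472 and 0.026 for the first 2 of these, and limma called both without Ptpmt1 knockout replicate 3.

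The FST pattern of Ppargc1b could be looked for only in PHT, since PTGC has no Ptpmt1 knockout without a second mutation. In PHT, Ppargc1b was at 779 and 625 in controls, 652 and 525 in Hri knockouts, 597, 658 and 669 in Ptpmt1 knockouts and 737 and 567 in doubles. The PHT Ptpmt1 knockouts overlapped the controls, at -0.12 against them, with a 95% interval from -0.41 to 0.16. In PTGC, Ppargc1b was at 471, 566 and 341 in controls and 587, 648 and 524 in doubles, which overlapped (0.38 ± 0.17, limma adjusted p = 0.425). The difference between tables was not tested, since they were normalized separately.

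Ppargc1a, which encodes PGC-1 alpha, overlapped between groups in FST, with 959, 1125 and 829 in controls, 1089.8, 979 and 938 in Eif2a mutants, 967, 848 and 1087 in Ptpmt1 knockouts and 949, 1017 and 905 in doubles. The 95% interval of the Ptpmt1 knockout against control ran from -0.25 to 0.24. In PHT it was 1155 and 1248 in controls, 1551 and 1357 in Hri knockouts, 1294, 1252 and 1403 in Ptpmt1 knockouts and 1410.4 and 1376 in doubles. The controls were the lowest, and the Hri knockout differed from them by 0.27 ± 0.09 (limma adjusted p = 1). Sex coincides with genotype in this comparison. PTGC had 1678, 1571 and 1836 in controls and 1597, 1439 and 1505 in doubles, -0.16 ± 0.10.

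Esrra, which encodes the receptor ERR alpha, was at 301, 291 and 412 in FST Ptpmt1 knockouts and 412, 438 and 396 in FST doubles, which overlap through Ptpmt1 knockout replicate 3 (0.33 ± 0.13, limma adjusted p = 0.288). Without that library it was called higher in the double, and 327 genes in all were called against 122 with it. Ppara, the receptor best known for the control of this pathway, had few reads. In FST it was at 22.2, 19.1 and 15.4 in controls, 3.81, 15.5 and 11.5 in Eif2a mutants, 18.3, 14.2 and 19.6 in Ptpmt1 knockouts and 15.6, 0 and 22.2 in doubles. The 0 falls in the shallowest library, where 1 read is worth 4.42 normalized counts, so the fitted difference of the double of -1.44 ± 0.88 is no measure of a change. In PHT, Ppara was at 23.5 and 33.4 in controls, 39.1 and 27.3 in Hri knockouts, 29.9, 54 and 43 in Ptpmt1 knockouts and 65.9 and 37.1 in doubles, where both doubles exceeded both controls (0.80 ± 0.39, limma adjusted p = 0.765). In PTGC it was at 25.6, 33.5 and 25.6 in controls and 21.4, 38.8 and 20.4 in doubles. For Ppard and Esrrg, the remaining receptors, the largest difference from control in any group was 0.25 in the PTGC double and -0.17 in the FST double, respectively.

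Read over all 35 members, the FST groups without the control genotype lay slightly below control. The median log2 fold change was -0.12 in the Ptpmt1 knockout, with 28 of 35 members below 0, where 51% of all genes were and their median was -0.01. It was -0.11 in the Eif2a mutant (27 of 35) and -0.17 in the double (29 of 35), beside 51.9% and 50.7% of all genes below 0. Since these 3 share the FST controls, they are not independent of each other. The PTGC double had a median of -0.14 with 28 of 35 below 0 (49.5% of all genes). Markers of other cells differed between the same PTGC groups without overlap: fibroblast markers took 0.165 to 0.189% of the signal in doubles and 0.138 to 0.164% in controls, and mural markers 0.133 to 0.157% and 0.168 to 0.18%. Macrophage markers took 0.00197 to 0.00229% in doubles and 0.00164 to 0.00166% in controls, and adipocyte markers 0.000664 to 0.00079% and 0.000359 to 0.000546%. The adipocyte markers summed to only 87 to 105 normalized counts in doubles and 49.1 to 72.1 in controls. Cardiomyocyte markers overlapped (7.05 to 7.75% in doubles, 5.95 to 7.42% in controls). So did atrial, endothelial, epicardial, erythroid, liver, lymphocyte and skeletal muscle markers. The part of all these markers in the result was not tested. In PHT the median was -0.02 in the Ptpmt1 knockout (21 of 35 below 0, and 49.1% of all genes), 0.07 in the Hri knockout (10 of 35, and 49%) and 0.01 in the double (15 of 35, and 50.6%). Depending on the library left out, the median of the FST Ptpmt1 knockout ran from -0.20 without its replicate 3 to -0.03 without its replicate 2. That of PTGC was -0.08 with 25 of 35 below 0 without control replicate 3. Lower values with no overlap with control were found for 8 of 35 members in the FST Ptpmt1 knockout (9.48% of all genes), 7 in the Eif2a mutant (7.96%), 11 in the FST double (9.87%) and 10 in the PTGC double (9.05%). Higher values with no overlap were found for 2 (9.61%), 1 (8.37%), 1 (9.64%) and 1 (8.98%) in the same order. In PHT, 5 members were higher (12%) and 2 lower (11.6%) in the Ptpmt1 knockout, although 21 of 35 lay below 0. The counts were 8 higher (15%) and 1 lower (14.4%) in the Hri knockout, and 8 higher (16.2%) and 5 lower (16%) in the double. The 5 higher in the PHT Ptpmt1 knockout and the 5 lower in the PHT double were near the share of all genes. Sex coincides with genotype between the PHT controls and both the Hri knockouts and the doubles.

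**Figure D4:**
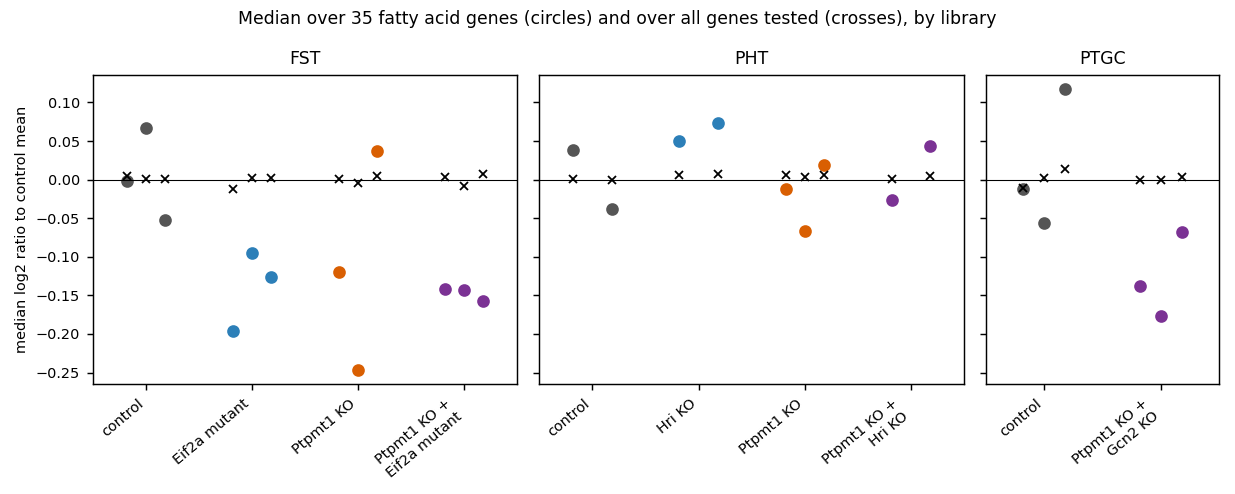
Median over the 35 fatty acid genes (circles) and over all genes tested (crosses) of the log2 ratio to the control mean, 1 pair per library, for each group of FST, PHT and PTGC. The crosses stay near 0, while the circles of the FST doubles lie between -0.16 and -0.14 and those of the FST Ptpmt1 knockouts spread from -0.25 to 0.04.

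The circles of single libraries show how uneven the shift was. The FST Ptpmt1 knockouts stood at -0.12, -0.25 and 0.04, and the third of these is the library whose stress panel was the highest of its group and whose fibroblast markers took 0.291% of the signal, against 0.148 to 0.15% in the other two. Macrophage markers took 0.00469% there, against 0.0011 to 0.00147%, and erythroid markers 0.0416%, against 0.00886 to 0.00924%. The part of these markers in the result was not tested. The Eif2a mutants stood at -0.20, -0.09 and -0.13, and their stress panel lay at 0.0255 to 0.0274% of the signal, near that of controls. In PTGC the controls stood at -0.01, -0.06 and 0.12 and the doubles at -0.14, -0.18 and -0.07. Depth and sex differ between the FST groups too, and with a term for sex the FST Ptpmt1 knockout had a median of -0.09 and 3 members at an unadjusted p under 0.05 (6.54% of all genes).

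How large a change these data could hide is given by the intervals of the fits. In the FST Ptpmt1 knockout against control, the 95% interval lay wholly within 1.5-fold either way for 27 of 35 members (58% of all genes), in PHT for 32 (66%) and in the PTGC double for 26 (65.9%). Within 2-fold either way it lay for 34 of 35 in the FST Ptpmt1 knockout (81.5% of all genes), where the exception was Ppara, and for 35 of 35 in PTGC (90.6%). For the FST double against control the count within 1.5-fold was 27 (59.8% of all genes) and for the Hri knockout 34 (63.3%).

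**Figure D5:**
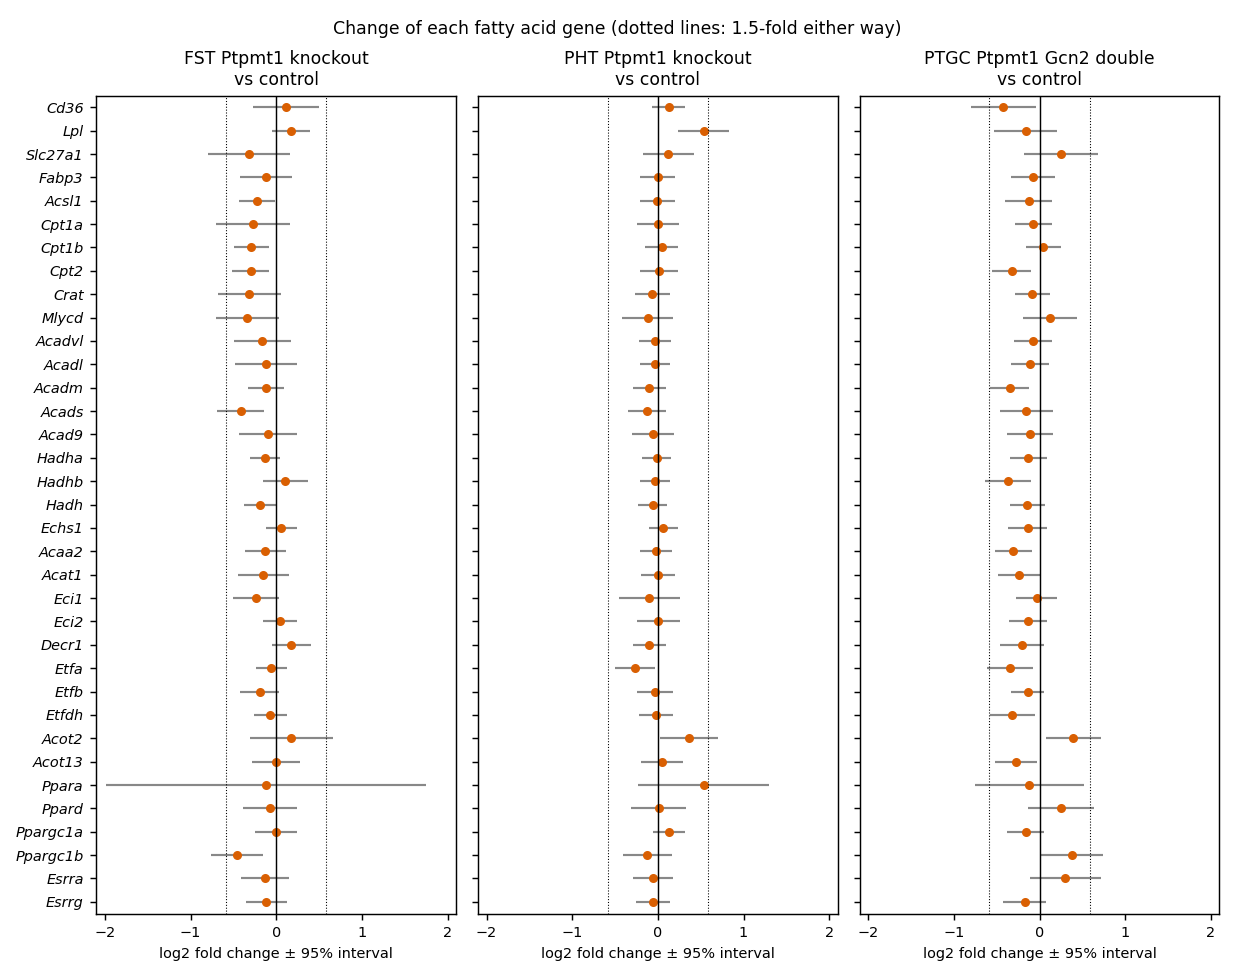
Log2 fold change with its 95% interval for each of the 35 fatty acid genes in the Ptpmt1 knockout against control of FST and PHT and in the PTGC double against control, with dotted lines at 1.5-fold either way. Ppara has the widest interval, Ppargc1b and Acads lie lowest in FST, Lpl lies highest among well measured genes in PHT, and no gene was called by limma.

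Of 10 further lists around the pathway, 3 genes in all were called over the 13 comparisons. The share of all genes called ran from 0.0072 to 0.878% over these comparisons. Srebf2, the transcription factor of sterol synthesis, fell in the FST Ptpmt1 knockout from 1334 ± 59.5 to 952 ± 16.3 normalized counts (-0.49 ± 0.08, limma adjusted p = 0.0124). Srebf1, its relative in fatty acid synthesis, rose in the FST double against the Ptpmt1 knockout, from 255 ± 9.18 to 351 ± 8.26 (0.46 ± 0.09, limma adjusted p = 0.0332). Both belong to the list of fatty acid synthesis and SREBP, where 12 genes were tested. Vldlr, a receptor that takes up triglyceride-rich lipoproteins and belongs to the list of other uptake genes (14 tested), rose in the PTGC double from 1347 ± 151 to 2306 ± 153 (0.78 ± 0.11, limma adjusted p = 0.00316). The calls of Srebf2 and Srebf1 were lost in several alternatives, and that of Vldlr only without limma's intensity trend (adjusted p = 0.0559). Srebf2 was not called without control replicate 1 (adjusted p = 0.0779) or without control replicate 2 (0.0822), and Srebf1 was not called when any of 9 of the 12 FST libraries was left out in turn (limma adjusted p from 0.0529 to 0.132).

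At shares of 0.0072 to 0.878% of all genes called, 0 genes rose and 0 fell in any comparison in the other 8 lists. These hold carnitine supply (7 tested in FST), malonyl-CoA and AMPK (9), peroxisomal oxidation (18), lipid droplets and lipolysis (13), ketone body use (6), other mitochondrial acyl-CoA enzymes (25), other PPAR targets and fuel switches (9) and partners of the regulators (26). In the FST Ptpmt1 knockout their medians ran from -0.28 for the PPAR targets to -0.01 for the other acyl-CoA enzymes. A list had 0 to 3 genes at an unadjusted p under 0.05 there, beside 13.4% of all genes. Peroxisomal oxidation, which shortens very long fatty acids, had 15 of 18 genes below 0 in the FST Ptpmt1 knockout (median -0.09). In the FST double it had 15 of 18 (median -0.17), beside 51% and 50.7% of all genes below 0. It had 8 of 18 below 0 in the PHT Ptpmt1 knockout (49.1% of all genes) and 9 of 18 in the PTGC double (49.5%).

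Promoters of the members were read for letters known from the regulators, using the 250 bases before each RefSeq start (GRCm38.p6), which matched 27 of the 36 genes in 33 windows. The ERR element TNAAGGTCA and the PPAR element named direct repeat 1 (AGGTCA in 2 copies with 1 base between), each on either strand, were in 0 of 33 windows, against 1.14% and 0.0335% of all 32851 windows. At such shares 0 of 33 would be common for any genes, so these counts cannot show that members lack the elements. The composite C/EBP-ATF element TGATGNAA, the kind that Atf4 binds, was in 3 of 33 windows, against 3.45% of all. It was also in 4 of 15 windows of the stress panel. The 3 members and 2 panel genes are shown for comparison, 5′ to 3′ on the strand of the gene, with the element or its reverse complement in capitals:
Fabp3, chr4:130308676-130308705: gtgtgggccacTTTCATCAtgtgatgcgag
Echs1, chr7:140116567-140116596: caccaccaaagTGATGCAAttaacagacta
Esrra, chr19:6922017-6922046: gccctccttcgTGATGCAAgggtgctccgg
Asns, chr6:7693214-7693243: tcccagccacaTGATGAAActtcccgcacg
Chac1, chr2:119351038-119351067: cttccctgccgTTGCATCActcctgccagg
The Fabp3 stretch lies before a RefSeq start but inside the gene as annotated in GENCODE M21, where it begins at 130308595. A match is a description of letters and not a binding site. In the FST Ptpmt1 knockout against control, where the stress panel had 9 of 10 tested genes called higher, Fabp3 was at -0.12 ± 0.14, Echs1 at 0.06 ± 0.09 and Esrra at -0.13 ± 0.13. In the PTGC double, with 11 of 11 panel genes called higher, the same 3 genes were at -0.07 ± 0.12, -0.14 ± 0.10 and 0.30 ± 0.19.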

How the data were processed

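RNA was sequenced from 27 libraries labelled as cardiomyocyte nuclear RNA, prepared with ribosomal RNA removal, per the labels. The authors deposited 1 table per line of normalized counts, gene counts divided by a size factor per library, which are treated as signal values and not as counts. STAR 2.5.3a, DESeq2 1.12.4 and mm10 are named in the submitters' processing notes; the sources used here do not give the counting tool, annotation or strand setting. Dividing each deposited column by its smallest step gave whole reads (tolerance 0.1) for 100% of values, which supplied the depths. All value columns were mapped to samples by their names (0 unmapped). The labels do not say that replicates are separate animals. Sex differed between libraries within FST controls (1 of 3 male), FST doubles (2 of 3) and PHT Ptpmt1 knockouts (1 of 3). It also differed within both PTGC groups (2 of 3 each), so the libraries of these groups were not all from the same animal. The p-values measure the spread between libraries, part of which may be technical.

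Genes with a value of at least 10 in as many libraries as the smallest group (3 in FST, 2 in PHT, 3 in PTGC) were tested on log2(value + 1) with limma 3.58.1 (intensity trend, all groups of a table in 1 fit, two-sided, R 4.3.3). The genes tested numbered 13896 (FST), 14965 (PHT) and 14128 (PTGC), and Benjamini-Hochberg adjustment covered all of them. The log2(value + 1) scale understates the change of low genes. Tables were normalized separately, so no test crosses them. Alternatives were edgeR 4.0.16 and DESeq2 1.42.0 on the recovered reads, other pseudocounts, filters and scalings, no trend, a term for sex, only the groups compared, and leaving out each library. The procedure was tested on simulated data. Values in every library were given for members called in any comparison, for the 2 members with the smallest unadjusted p in each comparison of the Ptpmt1 knockout or double with control, of the double with the Ptpmt1 knockout and in each interaction, and for Cd36, Cpt1a, Cpt1b, Acadm, Hadha, Ppara and Ppargc1a as the best known of each role. Called genes of the further lists were named; values shown for other genes were chosen after they were seen. The members and lists were chosen with earlier results of these data known. Exon lengths came from GENCODE M21, pooled over all transcripts of a gene, and promoters from RefSeq.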

Additional observations from a re-analysis of the deposited data

How the results depend on the processing

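With limma, the number of fatty acid genes called was 0 in all 13 comparisons, and it stayed 0 in 9 of them under every alternative run. In the other 4 the calls were few. DESeq2 called 1 member in the FST Ptpmt1 knockout against control (Ppargc1b), 2 in the FST double against the Ptpmt1 knockout (Lpl and Ppargc1b) and 1 in the PHT Ptpmt1 knockout against control (Lpl). Leaving out 1 library gave 0 to 4 in the first, 0 to 2 in the second and 0 to 1 in the third of these, and 0 to 3 in the PTGC double against control. The 4 were Acads, Cpt1b, Crat and Ppargc1b, all lower without Ptpmt1 knockout replicate 3, where 857 genes were called in all. The 3 in PTGC were Acadm, Cd36 and Hadhb, all lower without control replicate 2, where 536 genes were called. The cause was not tested. Signs were followed for 56 fold changes, picked for a small unadjusted p or a call, and 0 of them reversed under any alternative. That choice makes a change of sign unlikely beforehand, and the other fold changes given here were not checked. The median of the list in the PHT Ptpmt1 knockout against control ran from -0.05 to 0.03 when 1 library was left out. No paired analysis was possible because the labels give no replicate numbers that join samples of different groups.

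Groups of 2 or 3 libraries limit what can be called. Depth limits Ppara and Ucp3, with few reads, and replicate 2 of the FST double, with 1887978 reads. With a term for sex the median of the list in the FST Ptpmt1 knockout was -0.09 in place of -0.12. Depth and markers of other cells also vary between libraries, and their part in the small shift of the list was not tested.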
